A study of Homo sapiens with 4 samples.

Results

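The integrated stress response regulators were described in RNA-seq of MDA-MB-231 cells, an established human line of triple-negative breast cancer. They comprised 10 genes, ATF4, ATF3, ATF5, DDIT3, CEBPB, CEBPG, TRIB3, PPP1R15A, CHAC1 and NUPR1, which were listed by name for their known part in the pathway and found by symbol among the 32955 genes of the deposited table. All 10 were present there. They were selected on this role and with their RPKM in these libraries, by group and by replicate number, already seen, so the differences below describe the 4 libraries and are not independent evidence. The cells had been transfected either with mimic NC, a control oligonucleotide, or with miR-217 mimic, a synthetic duplex that stands in for the mature microRNA, and each group holds 2 libraries that the labels number 1 and 2. All cells were grown in DMEM with fetal bovine serum, and the study's methods name the RiboFECT CP kit for transfection. The dose of the mimics and the time from transfection to harvest were not given in the sources used here. Nothing in the labels states whether libraries of one group came from separate cultures or what the number marks, so any p-value measures only the spread between these libraries, which may be technical.

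The integrated stress response is the pathway through which cells slow protein synthesis when amino acids run short, unfolded proteins collect in the endoplasmic reticulum (ER), heme is lacking, mitochondria fail or double-stranded RNA appears. Each of these signals reaches a kinase that phosphorylates the initiation factor eIF2 on its alpha subunit. Most translation then falls, while a small group of mRNAs with upstream reading frames, ATF4 among them, is translated better. ATF4 is a leucine zipper transcription factor that turns on genes of amino acid uptake and synthesis and a chain of further regulators, and it binds with C/EBP proteins at the C/EBP-ATF response element (CARE). In tumor cells the pathway is known for its part in coping with poor nutrient supply. RNA-seq measures transcript levels, and neither phosphorylation of eIF2 nor ATF4 protein was measured here.

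Sequences that bear on these genes are shown first, because they are what the members share or lack beside their levels. The sequence of miR-217, which the mimic carries, has its seed (bases 2 to 8) in capitals and lies on the minus strand at chr2:55983020-55983042 (RefSeq, GRCh38.p14).
hsa-miR-217-5p: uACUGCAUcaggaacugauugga
The match to this seed is ATGCAGT, and another form of the site of equal length, TGCAGTA, pairs with bases 2 to 7 and ends in an A. In the longest 3'UTR annotated in GENCODE 29 (GRCh38), TRIB3 held ATGCAGT once and ATF3 held TGCAGTA once, while the other 8 members held neither. The TRIB3 site is at chr20:396858-396864 on the plus strand, bases 168 to 174 after the stop codon, and the ATF3 site is at chr1:212620179-212620185 on the plus strand, bases 624 to 630. They are printed in capitals in their surroundings.
TRIB3: gttccacacacATGCAGTtcctgcttggg
ATF3: ctgtcaccacgTGCAGTAtctcaagatat
Of the 9890 genes tested with an annotated 3'UTR, 14.5% held ATGCAGT and 21.6% held one of these sites.

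Promoter windows of 300 bases, from 250 before to 50 after each RefSeq start site, were present for 9 of the 10 members. They were searched on both strands for CARE (TGATGNAA), the cyclic AMP response element CRE (TGACGTCA), the AP-1 site (TGANTCA) and the ER stress response element ERSE (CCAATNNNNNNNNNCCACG). CARE was found for CHAC1, CEBPG and ATF3, and 4.46% of all genes with a window held it. The stretches with the matched letters in capitals lie on the plus strand at chr15:40953221-40953319 (CHAC1, where the element reads on the opposite strand, 209 bases before the start site), chr19:33374021-33374128 (CEBPG, 42 bases before it) and chr1:212565166-212565273 (ATF3, 191 bases before one of its start sites).
CHAC1: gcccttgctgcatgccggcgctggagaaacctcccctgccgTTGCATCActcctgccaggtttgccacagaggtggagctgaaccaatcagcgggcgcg
CEBPG: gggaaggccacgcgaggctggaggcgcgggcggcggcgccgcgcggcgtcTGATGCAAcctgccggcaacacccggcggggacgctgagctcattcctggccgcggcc
ATF3: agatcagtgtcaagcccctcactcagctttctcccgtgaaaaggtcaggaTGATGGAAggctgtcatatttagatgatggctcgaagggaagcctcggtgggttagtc
CRE was found for PPP1R15A alone among the members, 58 bases before its start site at chr19:48872313-48872420 on the plus strand, and 2.25% of all genes with a window held it.
PPP1R15A: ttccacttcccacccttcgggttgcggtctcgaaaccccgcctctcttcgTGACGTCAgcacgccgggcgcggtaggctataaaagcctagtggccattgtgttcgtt
The AP-1 site was found for DDIT3 and ATF5 (9.37% of all genes), and ERSE for 0 of the 9 members (0.0916% of all genes). Elements further than 250 bases before a start site were not searched for. The 9 members had 18 windows, more for each gene than the 35116 windows of all 27305 genes. By window, CARE was in 3 of the 18 (3.62% of all windows) and CRE in 1 (1.85%). The AP-1 site was in 3 (7.71%) and ERSE in 0 (0.0769%). These matches describe letters in a window and are not measured binding sites. The region before the start codon was also read in the annotated transcript with the longest coding sequence of each gene. Among transcripts of equal coding length, the one with the longest such region was taken. ATF4 had 7 ATG triplets there, ATF5 had 6, DDIT3 had 5, CEBPG had 3, TRIB3 and PPP1R15A had 2 each and ATF3 had 1, whereas CEBPB, CHAC1 and NUPR1 had 0. The region had only 20 bases in CHAC1 and 101 in NUPR1, compared with 300 in CEBPB and 882 in ATF4, and the counts were not adjusted for length. Of 9689 tested genes with such a region, 52.5% held at least 1.

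Reads on genes, recovered from the RPKM values (reads per kilobase of gene, scaled by the reads on all genes of the library), summed to 32635814 to 57933183 per library. Along the first principal component, with 71.3% of the variance, the libraries split by replicate number. Both number 2 libraries had fewer reads than both number 1 libraries and a larger share on mitochondrial genes, 3.97% and 4.78% compared with 3.56% and 3.58%. The part of either in the differences between the numbers was not tested. Of the genes that mark this line, VIM, CD44, AXL, CAV1 and MSN went from 5.17 to 157 RPKM, but SPARC was at 0.0961 to 0.292. ESR1 and CDH1 were under 0.44 RPKM in every library and PGR was not listed, while EPCAM, taken as absent from the line, was at 3.90 to 7.41 RPKM. Of the markers of other cell types, ALB was not listed, PECAM1 and GFAP were at most at 0.138 RPKM, and PTPRC was at 0.351 and 0.414 RPKM in the mimic NC libraries and at 0.504 and 1.25 RPKM in the miR-217 mimic libraries. None of the listed ones was at 0, and their part in the results was not tested.

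All 10 members passed the filter of a mean RPKM of at least 1, with 44 to 14660 reads in each library. For CHAC1 this was reached only through the number 2 libraries, where it was highest. Levels in RPKM are per summed exon length, from 1266 bases (DDIT3) to 5674 (NUPR1). This length can exceed that of the transcript made, so levels of different genes can be compared only roughly. ATF4 and PPP1R15A were the highest of the 10 in every library, and CHAC1 or ATF3 was the lowest. PPP1R15A lay above ATF4 in both number 1 libraries and below it in both number 2 libraries. The plot of levels shows 7 genes in which the libraries split by number and 3 in which they lie close together.

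**Figure D1:**
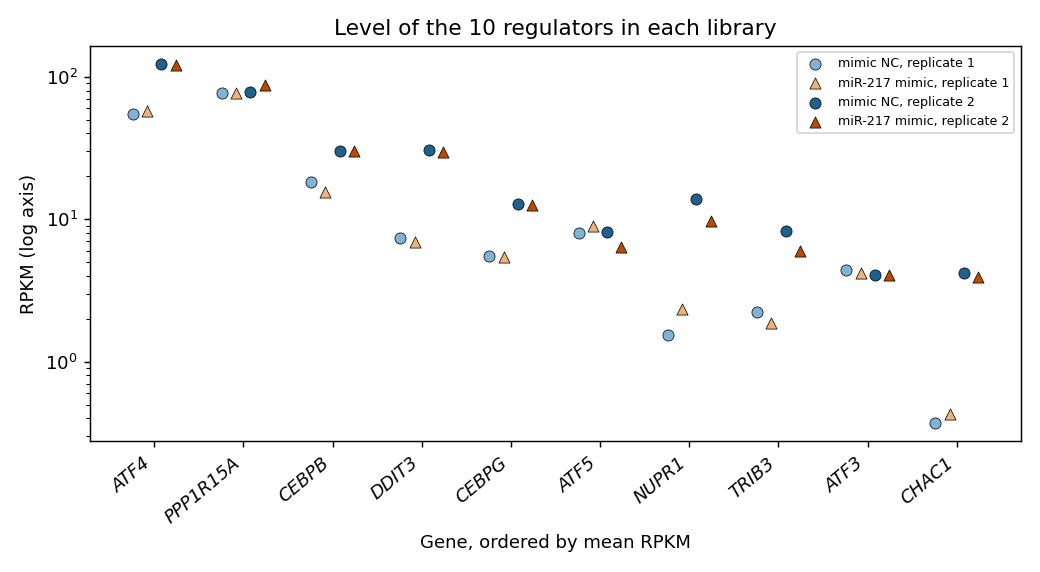
RPKM on a log axis for each of the 10 genes, with 1 point for each library (circles mimic NC, triangles miR-217 mimic, light replicate 1, dark replicate 2). In ATF4 the replicate 1 libraries sit at 54.4 and 57.4 RPKM and the replicate 2 libraries at 121 and 123, while in ATF3 all 4 lie between 4.05 and 4.39.

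The study asked which transcripts change with miR-217 mimic, and across these genes the libraries of the 2 groups overlapped in 10 of 10. Over all 13871 genes tested, the groups did not overlap in 23.2%. The median log2 fold change of the members with miR-217 mimic was -0.03 in log2(RPKM + 1), a scale on which changes of low genes look smaller than they are, and it was -0.02 over all genes tested. In bulk RNA a change in the number of cells with a transcript cannot be told apart from a change in its amount per cell. Differential expression was tested with limma over all 13871 genes with Benjamini-Hochberg adjustment, and 0 members had an adjusted p under 0.05, as did 0% of all genes. At an unadjusted p under 0.05, limma counted 165 genes or 1.19%, and 0 of the members. On the recovered reads, limma voom likewise gave 0 genes at an adjusted p under 0.05, and 84 at an unadjusted one. With 2 libraries on each side, the smallest two-sided p of an exact permutation test is 0.333. The standard errors of limma for the members went from 0.11 to 1.00 on the log2 scale, because in this fit the distance between the numbers counts as spread, so these tests do not show that the members were alike in both groups. The differences within each number are therefore given beside them.

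ATF4, the central transcription factor, was at 54.4 and 123 RPKM in mimic NC replicates 1 and 2, and at 57.4 and 121 RPKM in miR-217 mimic replicates 1 and 2. The replicate 1 libraries were low and the replicate 2 libraries high in both groups. Its mean RPKM was 88.8 ± 48.5 (SD, n = 2) in the mimic NC group, and in the other group it was 89.3 ± 45.1 (SD, n = 2). The log2 fold change was 0.03 (standard error 0.52, adjusted p = 1.00 from limma). Within number 1 the RPKM ratio of miR-217 mimic to mimic NC was 1.05 (95% interval 1.02 to 1.09), and within number 2 it was 0.985 (0.960 to 1.01). These intervals are exact binomial ones that cover counting error only, not the spread between cultures.

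Of the transcription factors that act with ATF4 or next to it, DDIT3 (CHOP), which is linked to cell death under lasting stress, was at 7.40 and 30.8 RPKM with mimic NC and at 6.87 and 29.8 RPKM with miR-217 mimic, replicate 1 before replicate 2. CEBPG, a partner that forms dimers with ATF4, was at 5.52 and 12.7 RPKM with mimic NC and at 5.45 and 12.7 RPKM with miR-217 mimic. In both genes the groups lay almost on each other within a number. The ratio of miR-217 mimic to mimic NC was 0.928 and 0.967 for DDIT3 and 0.987 and 0.996 for CEBPG within numbers 1 and 2, and all 4 counting intervals held 1. CEBPB, a C/EBP factor of differentiation and inflammation, was at 18.3 and 30.2 RPKM with mimic NC and at 15.4 and 30.3 RPKM with miR-217 mimic. It was lower with miR-217 mimic within number 1 (ratio 0.844, 95% interval 0.790 to 0.901) but not within number 2 (1.00, 0.945 to 1.06).

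ATF3 and ATF5 were not higher in number 2 in both groups as these were, and ATF3 was slightly lower there in both. ATF3, a factor that many kinds of stress induce, was at 4.39 and 4.08 RPKM with mimic NC and at 4.20 and 4.05 RPKM with miR-217 mimic. ATF5, a relative of ATF4 whose mRNA is also translated through upstream reading frames, was at 7.95 and 8.13 RPKM with mimic NC and at 8.96 and 6.42 RPKM with miR-217 mimic. Its lowest library was miR-217 mimic replicate 2, the one with the fewest reads. The ratio for ATF5 was 1.13 (95% interval 1.05 to 1.22) within number 1 and 0.790 (0.715 to 0.872) within number 2, so the direction was opposite.

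Among the effectors, TRIB3, a pseudokinase that restrains ATF4 and AKT, was at 2.24 and 8.32 RPKM with mimic NC and at 1.86 and 6.01 RPKM with miR-217 mimic. It was the one member whose counting interval lay below 1 within both numbers, with a ratio of 0.832 (0.720 to 0.960) within number 1 and 0.723 (0.658 to 0.794) within number 2. Its log2 fold change was -0.29 (standard error 0.66, adjusted p = 1.00 from limma), and its groups overlapped because the numbers lie further apart than the groups. The share of all genes with both intervals below 1 was not computed, so these values do not show that TRIB3 stands out. Such intervals excluded 1 in 5 of the 10 members within number 1 and in 4 within number 2. TRIB3 is also the member with the seed match ATGCAGT printed above, and whether that site acts in these cells was not tested. ATF3, which held the other site, had ratios of 0.956 and 0.993 within numbers 1 and 2, and both intervals held 1. NUPR1, a small chromatin-bound stress protein, was at 1.53 and 13.9 RPKM with mimic NC and at 2.33 and 9.73 RPKM with miR-217 mimic. It was higher with miR-217 mimic within number 1 (ratio 1.52, 1.35 to 1.70) and lower within number 2 (0.702, 0.663 to 0.743).

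PPP1R15A (GADD34), which brings a phosphatase to eIF2 and so ends the response, was at 77.3 and 78.2 RPKM with mimic NC and at 76.6 and 87.1 RPKM with miR-217 mimic. Of its 4 libraries only miR-217 mimic replicate 2 stood off, and the ratio within number 2 was 1.11 (1.08 to 1.15). CHAC1, an enzyme that breaks down glutathione, was at 0.369 and 4.19 RPKM with mimic NC and at 0.428 and 3.93 RPKM with miR-217 mimic. It had 44 and 47 reads in the number 1 libraries, so its ratio there of 1.16 had a wide interval of 0.752 to 1.79. Within number 1, 4 members were higher and 6 lower with miR-217 mimic, and within number 2, 2 were higher and 8 lower. The sign was opposite between the numbers in 6 of the 10 genes. These signs were not counted over all genes. Within numbers 1 and 2, the median difference in log2(RPKM + 1) was -0.01 and -0.03 for the members. Over all genes tested it was -0.01 and -0.02.

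**Figure D2:**
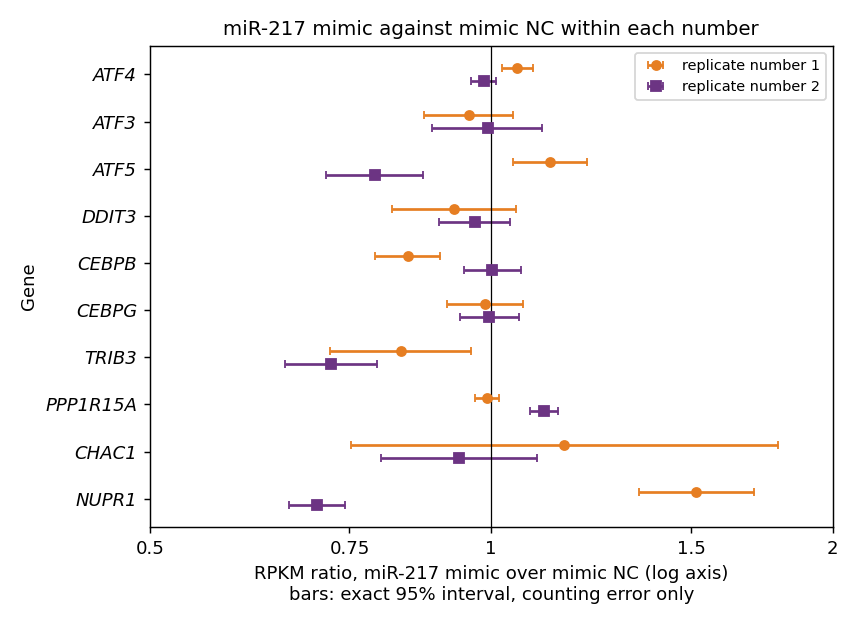
RPKM ratio of miR-217 mimic to mimic NC for each gene on a log axis, within replicate number 1 (circles) and number 2 (squares), with exact 95% intervals that cover counting error only. TRIB3 lies below 1 in both numbers, at 0.832 and 0.723, whereas NUPR1 lies at 1.52 in number 1 and 0.702 in number 2.

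Set by replicate number instead, most of the members differed in both groups in the same direction. This contrast was known when the genes were listed, and it is given without a test. A gene was counted when its log2(RPKM + 1) in number 2 was at least 1 above or below number 1, that is 2-fold, in mimic NC and again in miR-217 mimic. ATF4, DDIT3, CEBPG, TRIB3, CHAC1 and NUPR1, or 6 of the 10, were higher past 2-fold in number 2, and 0 were lower. CHAC1 passed the filter only through its number 2 libraries, so its place in this count is not independent of the contrast. Among all 13871 genes tested, 0.404% were higher and 0.339% lower by the same rule. The median difference of the members was 1.10, and it was -0.04 over all genes tested. Both number 2 libraries lay above both number 1 libraries in 8 members and below them in 1 (ATF3), compared with 26.9% and 35.5% of all genes. Over the 4 libraries, the number held a median of 96.1% of the sum of squares of a member and the group 1.01%, while these were 61.6% and 15.5% over all genes.

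CHAC1 had the largest ratio of number 2 to number 1, 11.4 (95% interval 8.32 to 15.9) with mimic NC and 9.18 (6.71 to 12.8) with miR-217 mimic. It was tested only because of its level in number 2, so its rank below carries the same limit. NUPR1 followed with 9.04 (8.23 to 9.94) and 4.18 (3.83 to 4.57), and of the 10 genes its ratios were furthest apart between the groups. DDIT3 had 4.16 (3.78 to 4.59) and 4.33 (3.89 to 4.83). These 3 genes ranked 3 to 5 from the highest of 13871 on the log2(RPKM + 1) scale, NUPR1 first, then DDIT3 and CHAC1. TRIB3 had ratios of 3.72 and 3.23, CEBPG 2.30 and 2.32, and ATF4 2.26 and 2.11. CEBPB, at 1.65 and 1.96, lay just outside the 2-fold rule and ATF4 and CEBPG just inside it. The intervals of these 7 genes lay above 1 in both groups. They cover counting error only, and the share of all genes with such intervals was not computed.

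The other 3 members were not counted. ATF3 had ratios of 0.929 and 0.965 and both intervals held 1. PPP1R15A had 1.01 with mimic NC and 1.14 with miR-217 mimic, and the second interval (1.11 to 1.17) lay above 1. ATF5 had 1.02 with mimic NC and 0.716 (0.651 to 0.788) with miR-217 mimic. Thus 2 of the 3 are leucine zipper factors like ATF4, DDIT3, CEBPB and CEBPG, and the third is the phosphatase subunit. The scatter of the differences shows both kinds of member against all genes.

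**Figure D3:**
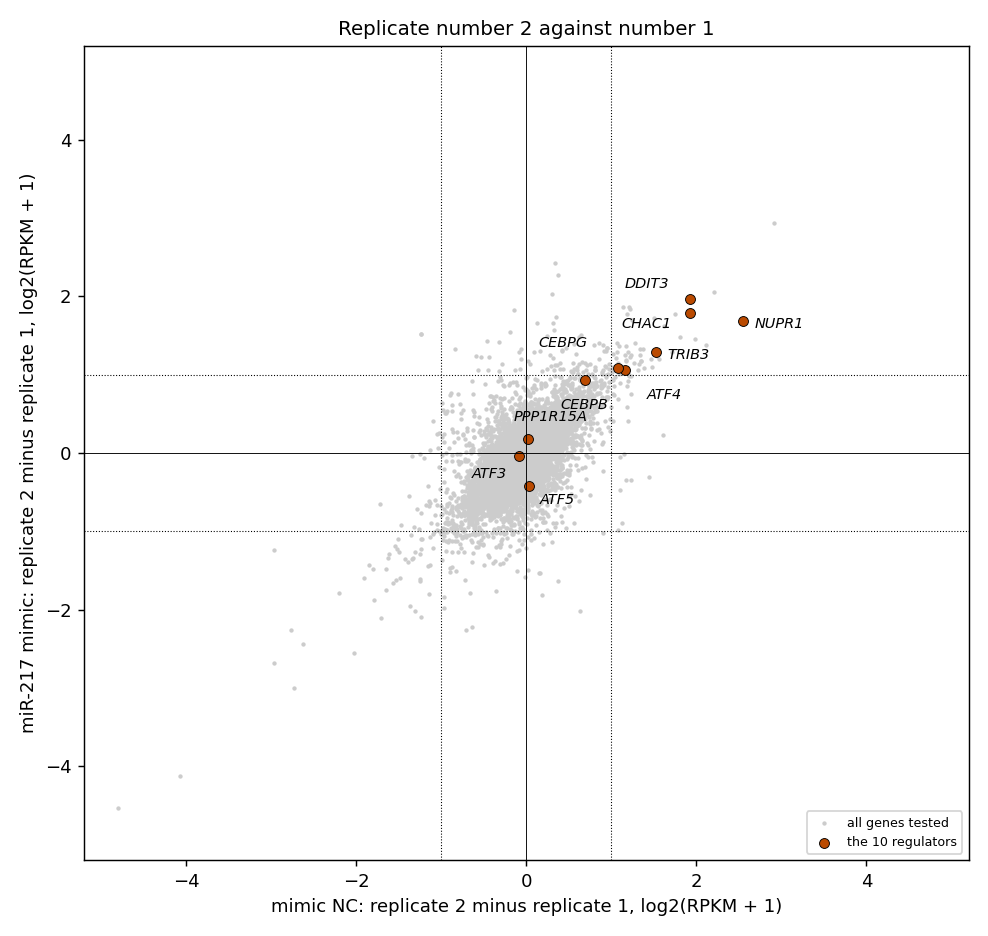
Replicate 2 minus replicate 1 in log2(RPKM + 1) with mimic NC (horizontal axis) and with miR-217 mimic (vertical axis) for the 13871 genes tested (grey) and the 10 regulators (orange), with dotted lines at 1 and -1. Of the regulators, 6 lie past 1 on both axes, CEBPB lies at 0.69 and 0.93, and ATF3, ATF5 and PPP1R15A lie among the bulk of genes.

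Relative to ATF4 the members kept or changed their share by number. CEBPG stayed at 9.49% to 10.4% of the RPKM of ATF4 in all 4 libraries. DDIT3 was at 13.6% of it in mimic NC replicate 1 and lower in miR-217 mimic replicate 1, and at 25.0% and 24.5% in the number 2 libraries. PPP1R15A went the other way, from 142% and 133% to 63.5% and 71.8%. CHAC1 was at 0.678% and 0.745% in number 1 and at 3.41% and 3.24% in number 2.

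Some of these values rest on exons that other genes share on the opposite strand. DDIT3 lies on the minus strand of chr12:57516588-57520517 and shares 28.0% of its exon bases with MARS (methionyl-tRNA synthetase), for which 3467 and 3375 reads were recovered in the number 1 libraries and 6366 and 4856 in the number 2 libraries. ATF5 shares 21.2% with NUP62 and 2.54% with IL4I1, and CEBPB shares 11.8% with CEBPB-AS1. The library kit keeps the strand, but whether counting used it was not given in the sources used here, and reads from such partners may then be mixed. The other 7 members shared no exon base with another gene of the table. ATF4 itself lies on the plus strand of chr22:39519695-39522685 (hg38, as are the other coordinates of the table).

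Genes above and below the regulators in the pathway were taken from hand-written lists. The list of other ATF4 targets held 34 genes, of which 28 were expressed highly enough to be tested. Of these, 13 were higher past 2-fold in number 2 in both groups and 0 were lower, with a median difference of 0.93 in log2(RPKM + 1). The highest were STC2, a secreted glycoprotein, ASNS, which makes asparagine, and PSAT1 of serine synthesis. STC2 was at 6.11 and 5.95 RPKM in the number 1 libraries and at 52.4 and 52.3 in the number 2 libraries, mimic NC before miR-217 mimic. ASNS was at 2.56 and 3.35 RPKM in number 1 and at 15.5 and 17.1 in number 2, and PSAT1 at 21.8 and 23.5 and at 75.7 and 83.1. The lowest of the list were BBC3, a death-promoting BCL2 relative, JDP2, a leucine zipper repressor, and KLHL24, with mean differences of -0.30, -0.16 and 0.08.

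Upstream in the pathway, 0 of 9 eIF2 kinases and their activators were past 2-fold, and the median difference in log2(RPKM + 1) of number 2 and number 1 was -0.19. Of all genes tested, 0.404% were higher and 0.339% lower by this rule, so a count of 0 in so short a list is near that share. The mitochondrial protease OMA1 (-0.46) and the heme-regulated kinase EIF2AK1 (-0.41) were lowest, followed by the amino acid sensor EIF2AK4 (-0.31). IMPACT, an inhibitor of EIF2AK4 and so no activator despite the name of the list, was highest at 0.34. DELE1, which carries a mitochondrial signal, followed at 0.24 and the double-stranded RNA sensor EIF2AK2 at 0.04. Among 16 genes of eIF2, its exchange factor eIF2B, the phosphatase and the further factors EIF2A, EIF2D, DENR and MCTS1, again 0 were past 2-fold. Their median was 0.03. Here the eIF2 subunits EIF2S2 (0.68) and EIF2S3 (0.39) and the reinitiation factor DENR (0.50) were highest, and PPP1CA (-0.26), PPP1R15B (-0.18) and EIF2B2 (-0.17) lowest.

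The ER stress genes of ATF6 and XBP1, the other arms of the unfolded protein response, held 16 tested genes, of which 0 were past 2-fold, with a median difference of 0.10 on the same scale. This count too is near the share of all genes. XBP1 (0.41), HERPUD1 (0.40) and HYOU1 (0.39) were highest and the chaperone CALR (-0.77), CRELD2 (-0.49) and MANF (-0.42) lowest. In the limma fit of miR-217 mimic against mimic NC, 0 genes of these lists had an adjusted p under 0.05, and 0 had an unadjusted p under 0.05. The lists were written with earlier results of these data known, and the difference between one list and another was not tested.

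**Figure D4:**
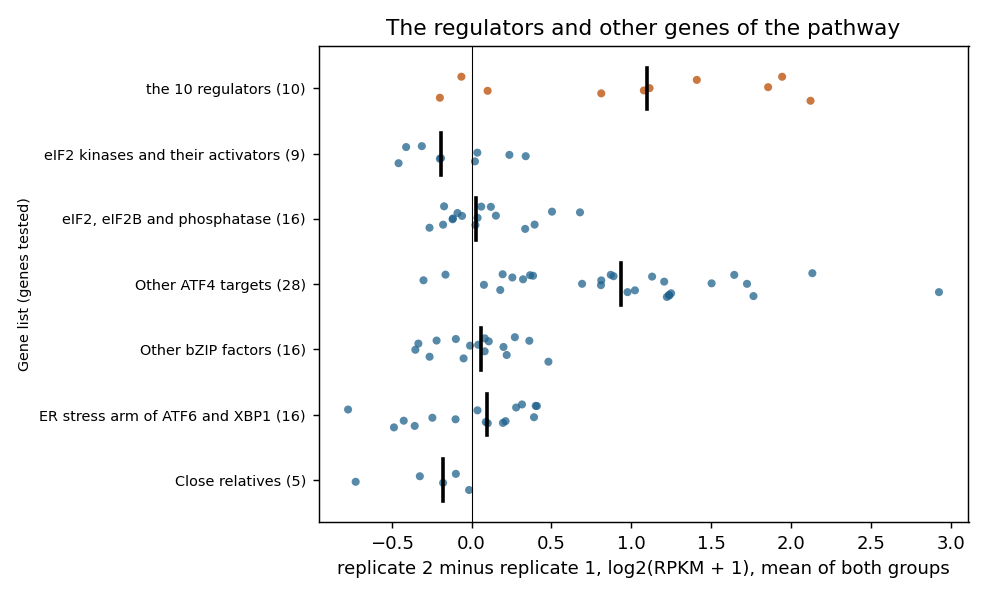
Replicate 2 minus replicate 1 in log2(RPKM + 1), as the mean of mimic NC and miR-217 mimic, with 1 point for each tested gene and a black bar at the median of each list. The regulators (median 1.10) and other ATF4 targets (0.93) lie to the right. The kinase list (-0.19), the eIF2 list (0.03) and the ER stress genes (0.10) lie around 0.

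The genes whose pattern over the 4 libraries was most like the mean of the 10 members were XPOT, SLC38A1, GFPT1, KIF21B and SMOX. Likeness was the root mean square difference of the centred log2(RPKM + 1) values, and it went from 0.032 for XPOT to 0.043 for SMOX. XPOT, which exports tRNA from the nucleus and is itself on the list of ATF4 targets, was at 22.1 and 22.5 RPKM in the number 1 libraries and at 45.6 and 44.1 in the number 2 libraries. SLC38A1, a glutamine transporter, was at 17.6 and 18.1 and at 37.4 and 36.7. Of the members themselves, CEBPG (0.051) and ATF4 (0.064) lay closest to this mean, and ATF5 (0.61) and NUPR1 (0.58) furthest from it.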

How the data were processed

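RNA-seq was measured in 4 libraries, 2 of mimic NC and 2 of miR-217 mimic, grouped and numbered by the sample labels. The authors deposited RPKM per gene, scaled by summed exon length and by the reads on all listed genes. The submitters' processing notes name hg38, Trimmomatic 0.36, featureCounts, Subread 1.5.1 and edgeR 3.12.1, with no role or order, and the aligner is not given in the sources used here. RPKM times length was a whole multiple of 1 read for 100% of nonzero values (tolerance 0.01), which gave the reads. Values were tested as log2(RPKM + 1) with limma 3.58.1 in R 4.3.3 (lmFit, eBayes with trend, two-sided) for genes whose mean RPKM reached 1, without a replicate term, since the study's text names no model. The fits were tested on simulated counts. Sites and upstream ATG triplets were read with Python 3.11.15 from GENCODE 29, promoters and miR-217 from RefSeq (GRCh38.p14).

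The members, lists and tests were chosen with earlier results of these data known. The text names all 10 members, the 3 highest and 3 lowest tested genes of each list in the difference of number 2 and number 1, any list gene with an unadjusted limma p under 0.05, the 5 genes most like the members, and the markers. Other settings changed the pseudocount (0.1) and the filter (none, or a mean RPKM of 5), centred the libraries on their medians, or used a replicate block, single groups and leaving out each library. Limma voom on recovered reads, with and without the block, and recovered reads scaled to library size with median-ratio scaling and a prior count of 2 were chosen after seeing the data, in place of a planned edgeR test and of TMM factors, which were not run because the deposited unit is RPKM.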

Additional observations from a re-analysis of the deposited data

How the results depend on the processing

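With miR-217 mimic, 0 genes had an adjusted p under 0.05 in limma under each planned setting, and 1 had under voom with the replicate block (NDRG1, log2 fold change -1.21). The count of members was 0 under each setting. At an unadjusted p under 0.05 the count of all genes was 165 as reported, 48 with a mean RPKM of at least 5, 84 with voom, 877 with no filter, 1046 with the replicate block, 1303 with voom and the block, and 93 to 866 without one library. With the replicate block, limma gave the same log2 fold changes, an unadjusted p of 0.0333 for TRIB3 (adjusted p = 0.633) and unadjusted p-values of 0.256 to 0.941 for the other members. There are only 2 pairs, and by the labels the libraries of a pair share only a number, whose meaning is not given. In their values they also went together. They split by number along the first principal component, and their deviations from the group means had a correlation of 0.68 across genes. The median log2 fold change of the members was -0.0085 with median centring, and it went from -0.57 to 0.50 without one library, since the numbers are then unequal between the groups. For the same reason the single genes ranged from -0.55 to 0.61 (ATF4), -0.074 to 0.012 (ATF3), -0.29 to 0.14 (ATF5), -1.05 to 0.91 (DDIT3), -0.58 to 0.35 (CEBPB), -0.55 to 0.53 (CEBPG), -1.06 to 0.47 (TRIB3), -0.021 to 0.16 (PPP1R15A), -0.97 to 0.95 (CHAC1) and -1.31 to 1.24 (NUPR1). The sign of a log2 fold change near 0 turned for CHAC1 (0.040) and NUPR1 (0.032) with a pseudocount of 0.1, CEBPG (0.016) and CHAC1 (0.019) with centring, NUPR1 (0.033) with voom and CEBPG (0.011) with voom and the block. In the contrast of the numbers the same 6 members were past 2-fold under each setting that tested all 10, and with a mean RPKM of at least 5 it was 4 of 7. Their median difference was 1.16 with a pseudocount of 0.1 and 1.21 on scaled reads. The genes past 2-fold numbered 103 as reported (56 higher, 47 lower), 195 with a pseudocount of 0.1 (83 higher, 112 lower), 196 on scaled reads (96 higher, 100 lower), 67 with a mean RPKM of at least 5, 161 in mimic NC alone and 308 in miR-217 mimic alone. The second miR-217 mimic library has the fewest reads, which limits the precision of low genes there, and CHAC1 had under 50 reads in each number 1 library.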

Other observations

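Close relatives of the members and other leucine zipper factors were also looked at. Of 5 tested relatives, 0 were past 2-fold between the replicate numbers, and the median difference in log2(RPKM + 1) was -0.18. Of all genes tested, 0.404% were higher and 0.339% lower by this rule, so counts of 0 in these short lists are near that share. TRIB1, a pseudokinase related to TRIB3, was at 5.05 and 4.76 RPKM in the number 1 libraries and at 2.28 and 2.89 in the number 2 libraries, the opposite direction from TRIB3. NUPR2, a relative of NUPR1, was at 6.98 and 6.43 RPKM in number 1 and at 5.39 and 4.93 in number 2. CHAC2, a relative of CHAC1, was at 18.7 and 20.6 RPKM in number 1 and at 17.6 and 21.4 in number 2, and CEBPD was at 6.91 and 5.02 and at 5.91 and 5.01. Of 16 tested genes on the list of other leucine zipper factors, again 0 were past 2-fold, with a median of 0.06. These 16 include CEBPZ, which is not a leucine zipper factor despite its symbol. NFE2L1, a regulator of proteasome genes, was highest (0.48), then NFIL3 (0.36) and CREM (0.27), and CREB3L2 (-0.35), ATF1 (-0.33) and ATF6B (-0.26) were lowest.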
